A study of Mus musculus with 22 samples.

Results

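The comparison asked whether gamma-delta thymocytes of the Vg1.1+ and Vg2+ subsets changed their transcripts differently as they passed from the CD24+CD73- to the CD24+CD73+ stage. Its value for each gene is a difference of differences on the log2 scale: the step of Vg1.1+ cells (CD24+CD73+ minus CD24+CD73-) minus the same step of Vg2+ cells. The difference took its values from 14 of the 22 arrays of the series, chosen by their labels alone, and covered 8545 tested genes. All cells were sorted from the thymus of untreated female C57BL/6 mice aged 8 weeks. Vg1.1+ CD24+CD73+ cells had 3 arrays, Vg1.1+ CD24+CD73- cells 4, Vg2+ CD24+CD73+ cells 4 and Vg2+ CD24+CD73- cells 3. The remaining 8 arrays held CD24-CD73+ cells, 4 of each subset, and gave no value to the difference. They entered the filter and the shared estimate of spread, so each p-value rests partly on them. Their values are shown to follow a gene to the last stage. The labels call the replicates biological without stating that each came from separate mice, so each p-value rests on the spread among these samples only.

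Gamma-delta T cells develop in the thymus from the same precursors as alpha-beta T cells and are grouped by the variable segment of their gamma chain. CD24 is a surface protein of immature thymocytes, and CD73, the ecto-enzyme encoded by Nt5e, appears once a thymocyte has committed to this lineage. In the mouse thymus, Vg2+ cells are known to include precursors of interleukin 17 producers, and Vg1.1+ cells to include producers of interferon gamma and interleukin 4.

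The step differed between the subsets in 8 of 8545 genes, which is 0.0936% (limma 3.58.1, adjusted p under 0.05, two-sided). It was lower in Vg1.1+ cells for 5 of them (0.0585%): the chemokine Xcl1, the CD30 ligand Tnfsf8, Spa17, the interferon-inducible GTPase Tgtp1 and the extracellular matrix protein Aspn. It was higher in Vg1.1+ cells for 3 (0.0351%): Ccr2, a receptor for chemokines, and Slc35b4 and Slc35d1, which transport nucleotide sugars. Sizes ran from 0.99 to 2.02 log2 units. At the starting stage all 8 also differed between the subsets, in the direction opposite to the difference of steps. That is not separate support, because the first-stage difference enters the difference of steps with a minus sign.

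The arrays of the comparison had median log2 values of 4.43 to 4.68 and SDs of 1.71 to 2.09. The narrowest spread was that of Vg2+ CD24+CD73+ replicate 3, and the next narrowest was 1.91. The CD3 chains Cd3d, Cd3e and Cd3g, which every T cell carries, had group means of 9.49 to 11.52 in the 4 groups. Of the 3, 0 passed the test for the difference, but Cd3e was not steady. Its mean went from 10.18 to 10.75 in Vg1.1+ cells and from 10.10 to 9.49 in Vg2+ cells. Within Vg2+ CD24+CD73+ cells Cd3e ran from 8.24, on replicate 3, to 10.61. Nt5e, the transcript of the sorted protein CD73, rose in both subsets, by 4.30 ± 0.26 in Vg1.1+ cells and by 3.80 ± 0.26 in Vg2+ cells (log2 difference ± SE). The sort labels and the transcript therefore ran the same way in both subsets.

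The promoters of 4 of the 8 genes are shown because these carry the largest difference in each functional group: a chemokine, a TNF-family ligand, an interferon-inducible gene and a transporter. The sequences are RefSeq's for GRCm38.p6, from 250 bases before to 50 after the annotated start, 5′ to 3′ on the strand of the gene, and all 8 genes could be matched. Capitals mark matches, on either strand, to the motifs searched, other than the common E-box CANNTG.
Xcl1, chr1:164935473-164935772, minus strand: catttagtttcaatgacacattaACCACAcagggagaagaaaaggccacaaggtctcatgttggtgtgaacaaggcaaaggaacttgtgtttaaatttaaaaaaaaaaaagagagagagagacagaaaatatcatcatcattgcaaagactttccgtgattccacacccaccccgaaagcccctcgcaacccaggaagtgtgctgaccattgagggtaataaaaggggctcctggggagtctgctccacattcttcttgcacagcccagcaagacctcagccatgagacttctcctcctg
Tnfsf8, chr4:63861235-63861534, minus strand: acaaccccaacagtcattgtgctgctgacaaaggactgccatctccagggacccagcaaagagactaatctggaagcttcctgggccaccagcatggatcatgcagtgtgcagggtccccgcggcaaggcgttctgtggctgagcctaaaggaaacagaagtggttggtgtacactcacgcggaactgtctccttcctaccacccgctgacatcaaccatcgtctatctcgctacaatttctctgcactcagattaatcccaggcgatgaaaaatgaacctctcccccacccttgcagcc
Tgtp1, chr11:48992197-48992496, minus strand: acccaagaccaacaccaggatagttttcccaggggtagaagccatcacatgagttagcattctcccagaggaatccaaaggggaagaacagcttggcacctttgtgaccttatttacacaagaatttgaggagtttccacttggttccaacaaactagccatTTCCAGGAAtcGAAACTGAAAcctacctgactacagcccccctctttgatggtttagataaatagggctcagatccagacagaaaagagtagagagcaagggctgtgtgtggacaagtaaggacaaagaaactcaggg
Slc35b4, chr6:34177005-34177304, minus strand: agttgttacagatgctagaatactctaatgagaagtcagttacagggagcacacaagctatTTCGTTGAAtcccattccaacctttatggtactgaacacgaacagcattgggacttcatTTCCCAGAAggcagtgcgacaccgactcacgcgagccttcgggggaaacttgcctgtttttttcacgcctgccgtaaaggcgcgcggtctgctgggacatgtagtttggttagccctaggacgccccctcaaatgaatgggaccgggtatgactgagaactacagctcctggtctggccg

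The Tgtp1 promoter holds the core of an interferon-stimulated response element, GAAACTGAAA, whose first base lies at -77 from the start. The pattern searched was GAAA-NN-GAAA, where N is any base, which 2.88% of the promoters of 7013 tested genes hold. Beside it, without overlap, lies TTCCAGGAA at -88, a match to the interferon-gamma activated site TTCNNNGAA, which 6.74% of those promoters hold. The Slc35b4 promoter has 2 matches to the same site, TTCGTTGAA at -189 and TTCCCAGAA at -130, although the steps of Slc35b4 and Tgtp1 differed in opposite directions. The Xcl1 promoter has the Runx core TGTGGT on the other strand (12.3% of promoters), and that of Tnfsf8 has no capitals. Among the promoters not printed, Spa17 matched the Egr site GCGNGGGCG (10.6%), Aspn the TATA box TATAAA (6.79%), and Slc35d1 and Ccr2 none of these. No promoter of the 8 matched the AP-1 site TGANTCA (4.61%), and 5 held an E-box (62.7%). A match describes letters and shows no binding.

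Xcl1, the chemokine also called lymphotactin, had the largest difference of the 8 genes and attracts dendritic cells that carry its receptor. Its log2 values (probe set 6763731) in Vg1.1+ cells were 8.01, 8.16, 8.76 and 8.07 at CD24+CD73-, 10.48, 10.42 and 10.06 at CD24+CD73+, and 10.06, 10.82, 10.12 and 10.56 at CD24-CD73+. In Vg2+ cells they were 6.27, 6.27 and 6.44 at the first stage, 10.65, 10.41, 9.85 and 10.73 at the second, and 10.54, 10.42, 10.65 and 10.32 at the last. Every Vg1.1+ array stood above every Vg2+ array at the first stage, and the subsets overlapped at both later stages. Xcl1 therefore rose in both subsets, by 2.07 in Vg1.1+ cells and by 4.09 in Vg2+ cells, a difference of steps of -2.02 ± 0.30 (95% interval -2.65 to -1.39, limma adjusted p = 0.00407). At CD24+CD73+ the subset difference was -0.09 (adjusted p = 0.811).

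Tnfsf8 encodes the ligand of CD30, a signal between lymphocytes. In Vg1.1+ cells Tnfsf8 (probe set 6922324) read 5.95, 6.12, 6.02 and 5.83 at CD24+CD73-, 7.19, 7.10 and 7.07 at CD24+CD73+, and 5.88, 6.20, 6.14 and 6.40 at CD24-CD73+. In Vg2+ cells it read 3.99, 3.67 and 3.90, then 6.78, 6.71, 6.72 and 6.80, then 5.88, 6.07, 6.11 and 6.18. The subsets were apart at the first stage and, by less, at the second, with Vg1.1+ above Vg2+ both times, and they overlapped at the last. The step was a rise of 1.14 in Vg1.1+ cells and of 2.90 in Vg2+ cells. Their difference, -1.75 ± 0.17 (95% interval -2.10 to -1.41), had the lowest adjusted p of all genes, 8.93e-06 in limma. In both subsets the highest Tnfsf8 values were those of the CD24+CD73+ stage.

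Ccr2 is a receptor for inflammatory chemokines such as Ccl2. In Vg1.1+ cells Ccr2 (probe set 6993153) read 4.84, 4.94, 4.97 and 4.65 at CD24+CD73-, 4.80, 4.96 and 4.81 at CD24+CD73+, and 7.65, 7.55, 7.54 and 7.38 at CD24-CD73+. In Vg2+ cells it read 5.62, 5.45 and 5.32, then 4.33, 4.25, 3.87 and 4.34, then 8.93, 9.21, 9.46 and 9.51. The subsets did not overlap at any stage, and their order turned over: Vg2+ was above Vg1.1+ at the first and last stages and below it at the second. All Vg2+ values at the second stage lay below the median of the whole table, 4.55, in the low range of the array. The Vg1.1+ values at the first 2 stages, 4.65 to 4.97, lay just above that median. In Vg1.1+ cells the step groups overlapped (difference 0.01, adjusted p = 0.990). Ccr2 fell by 1.27 in Vg2+ cells, and the difference of steps was 1.28 ± 0.20 (95% interval 0.86 to 1.69, limma adjusted p = 0.00409). At CD24+CD73+ taken alone the subset difference of 0.66 did not pass (adjusted p = 0.103), and at the last stage Ccr2 was lower in Vg1.1+ cells (-1.75, adjusted p = 4.45e-09).

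**Figure D1:**
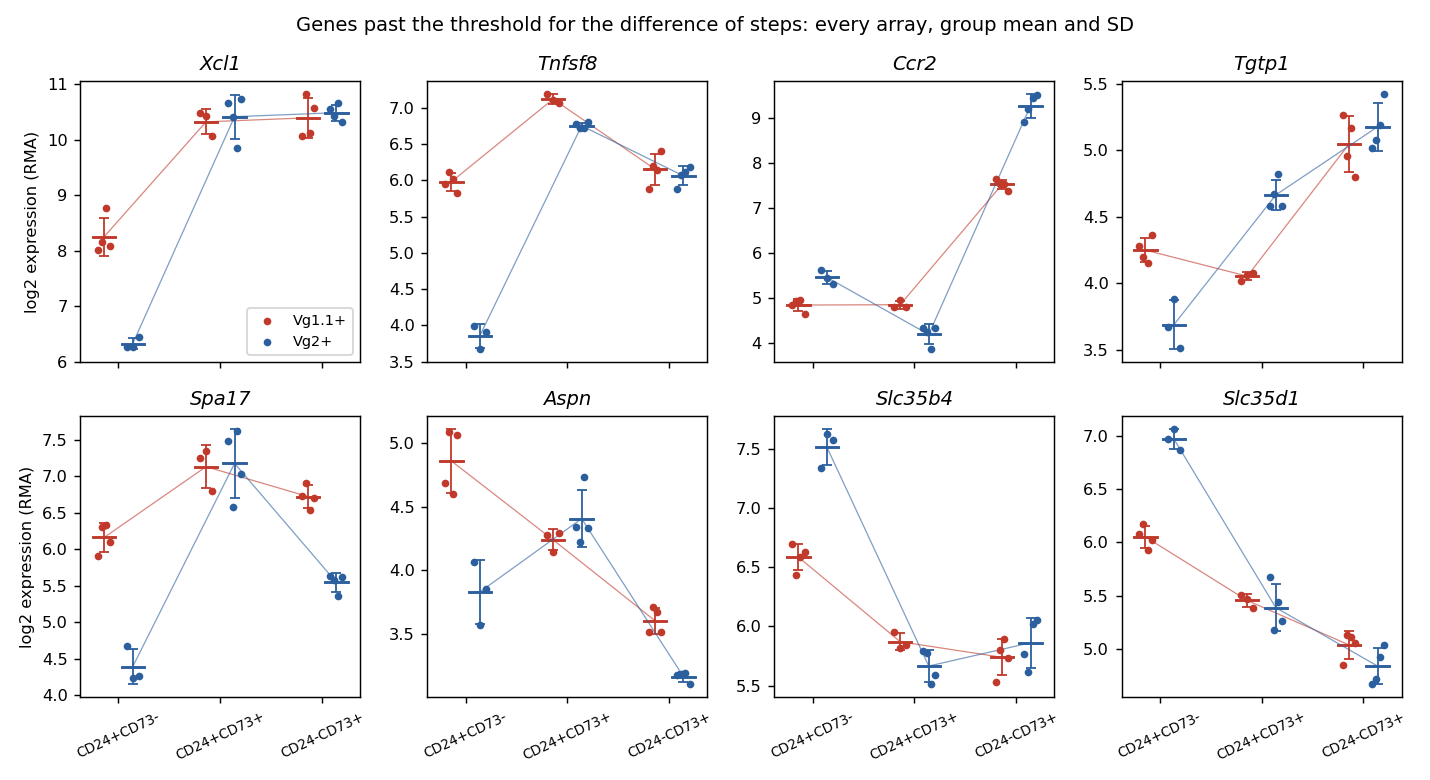
Log2 expression (vertical axis) on every array for the 8 genes whose step differed between the subsets, by stage (horizontal axis), Vg1.1+ in red and Vg2+ in blue, with the group mean and SD. In each panel the subsets stand apart at CD24+CD73- and lie closer or cross at CD24+CD73+, as in Xcl1, where the first-stage means are 8.25 in Vg1.1+ cells and 6.33 in Vg2+ cells.

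Tgtp1 belongs to the interferon-inducible GTPases, which act against parasites and bacteria inside cells. In Vg1.1+ cells Tgtp1 (probe set 6787909) read 4.28, 4.20, 4.16 and 4.36 at CD24+CD73-, 4.02, 4.06 and 4.08 at CD24+CD73+, and 5.27, 4.96, 5.17 and 4.80 at CD24-CD73+. In Vg2+ cells it read 3.67, 3.88 and 3.51, then 4.58, 4.67, 4.82 and 4.58, then 5.02, 5.08, 5.19 and 5.43. Vg1.1+ arrays were all above Vg2+ arrays at the first stage and all below them at the second, and the subsets overlapped at the last. Tgtp1 rose by 0.98 in Vg2+ cells, and in Vg1.1+ cells its step was -0.20 (adjusted p = 0.474). The difference was -1.17 ± 0.18 (95% interval -1.54 to -0.80, limma adjusted p = 0.00407). The values at the first 2 stages lay near or below the median of the whole table, 4.55, and a near-identical neighbour, Tgtp2, may share signal with these probes, so the gene is uncertain. A second probe set of Tgtp1 (6787931) had a difference of -2.27. Its mean over all arrays was 3.98, below that median, so it is no separate check of the call.

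Spa17 encodes a protein first described on sperm. In Vg1.1+ cells Spa17 (probe set 6994705) read 5.91, 6.31, 6.34 and 6.10 at CD24+CD73-, 7.26, 7.34 and 6.79 at CD24+CD73+, and 6.73, 6.91, 6.54 and 6.70 at CD24-CD73+. In Vg2+ cells it read 4.67, 4.23 and 4.27, then 7.48, 6.57, 7.62 and 7.03, then 5.63, 5.58, 5.36 and 5.62. The subsets were apart with Vg1.1+ above at the first and last stages, and overlapped in between. Spa17 rose by 0.97 in Vg1.1+ cells and by 2.79 in Vg2+ cells, and the difference was -1.82 ± 0.28 (95% interval -2.40 to -1.23, limma adjusted p = 0.00407). On arrays numbered 1 to 3 alone this call ended. Of the 8 genes, Spa17 and Aspn had a subset difference past the threshold in favour of Vg1.1+ at the last stage as well, 1.18 for Spa17 (adjusted p = 0.000113).

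Aspn encodes asporin, a small leucine-rich proteoglycan of connective tissue. In Vg1.1+ cells Aspn (probe set 6806958) read 4.69, 5.08, 4.60 and 5.06 at CD24+CD73-, 4.28, 4.15 and 4.30 at CD24+CD73+, and 3.52, 3.72, 3.67 and 3.52 at CD24-CD73+. In Vg2+ cells it read 4.07, 3.57 and 3.86, then 4.34, 4.22, 4.73 and 4.34, then 3.18, 3.19, 3.19 and 3.11. It was the only one of the 8545 tested genes past the threshold in both steps with opposite signs: it fell by 0.62 in Vg1.1+ cells (adjusted p = 0.00621) and rose by 0.58 in Vg2+ cells (adjusted p = 0.00845). The difference was -1.19 ± 0.20 (95% interval -1.61 to -0.78, limma adjusted p = 0.00796). Its call ended in 5 of 25 alternatives: the replicate block (adjusted p = 0.0666), a fit without the CD24-CD73+ arrays, arrays numbered 1 to 3, quantile normalization and a minimum fold of 1.5. The Aspn values, 3.11 to 5.08, lay around and below the table's median of 4.55, in the low range of the array. Those above it were the Vg1.1+ CD24+CD73- arrays and the Vg2+ CD24+CD73+ array at 4.73. Aspn thus met the filter, values above that median on at least 3 arrays, through a group of its own difference. Without a filter it still passed, and under a stricter filter (5.46) it was not tested. Of 9 markers of fibroblasts and mesenchyme on the array 3 were tested and 0 passed, with the difference of Col1a1 at -0.04. The sum of their signals on the linear scale was 112 to 125 in Vg1.1+ CD24+CD73+ cells, 116 to 135 in Vg1.1+ CD24+CD73- cells, 120 to 161 in Vg2+ CD24+CD73+ cells and 124 to 137 in Vg2+ CD24+CD73- cells.

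The 2 transporters carry nucleotide sugars from the cytosol into the endoplasmic reticulum and Golgi, where sugar chains are built. Slc35b4 is known to carry UDP-xylose and UDP-N-acetylglucosamine, and Slc35d1 UDP-glucuronic acid and UDP-N-acetylgalactosamine, the donors for proteoglycan chains. Slc35b4 (probe set 6952601) read 6.70, 6.43, 6.59 and 6.63 at CD24+CD73-, 5.95, 5.82 and 5.84 at CD24+CD73+, and 5.53, 5.80, 5.89 and 5.74 at CD24-CD73+ in Vg1.1+ cells. In Vg2+ cells Slc35b4 read 7.34, 7.63 and 7.58, then 5.79, 5.77, 5.51 and 5.59, then 5.76, 5.61, 6.02 and 6.05. Vg1.1+ lay below Vg2+ at the first stage and narrowly above it at the second. Slc35b4 fell by 0.72 in Vg1.1+ cells and fell by 1.85 in Vg2+ cells, and the difference was 1.14 ± 0.18 (95% interval 0.77 to 1.502, limma adjusted p = 0.00407). On arrays numbered 1 to 3 alone the call of Slc35b4 ended.

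Slc35d1 also fell in both subsets over the step. In Vg1.1+ cells Slc35d1 (probe set 6924027) read 6.08, 6.18, 5.93 and 6.02 at CD24+CD73-, 5.51, 5.47 and 5.39 at CD24+CD73+, and 4.85, 5.13, 5.11 and 5.05 at CD24-CD73+. In Vg2+ cells it read 6.98, 7.06 and 6.87, then 5.67, 5.17, 5.44 and 5.26, then 4.67, 4.72, 4.92 and 5.04. The subsets were apart at the first stage and overlapped at both later ones. Slc35d1 fell by 0.60 in Vg1.1+ cells and fell by 1.58 in Vg2+ cells, with a difference of 0.99 ± 0.17 (95% interval 0.63 to 1.35, limma adjusted p = 0.0136). It is the called gene nearest to the threshold, and its call ended without Vg1.1+ CD24+CD73+ replicate 1, without Vg1.1+ CD24+CD73+ replicate 2 or without Vg2+ CD24+CD73- replicate 2. The call also ended with the replicate block (adjusted p = 0.112), on arrays numbered 1 to 3 and with a minimum fold of 1.5. The gene just outside the threshold was the predicted gene B430209F14Rik (-2.57 ± 0.51, adjusted p = 0.0544). In bulk samples such as these, fewer cells with a transcript and less of it per cell cannot be told apart.

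The count of 8 genes stands beside larger counts for each step alone, with which the difference shares its arrays. The Vg1.1+ step passed in 668 genes (7.82%), 373 higher (4.37%) and 295 lower (3.45%) at CD24+CD73+, and the Vg2+ step in 1045 (12.2%), 497 higher (5.82%) and 548 lower (6.41%). Of 450 genes called in both steps with the same sign, 5 differed between the steps: Xcl1, Spa17, Tnfsf8, Slc35b4 and Slc35d1. Of 594 genes past the threshold in Vg2+ cells alone, 2 did (Tgtp1 and Ccr2), and of 217 past it in Vg1.1+ cells alone, 0 did. An unadjusted limma p under 0.05 for the difference was held by 76 of these 217, 239 of the 594 and 81 of the 450. The classes come from the same arrays as the difference, which raises that share for genes called in 1 subset alone. A gene called in 1 subset and not in the other was thus rarely shown to differ between them. Across genes, which are not independent replicates, the steps had a Pearson r of 0.662. Over all tested genes 810 (9.48%) had an unadjusted p under 0.05 for the difference, and the median difference was 0.06. Leaving out Vg2+ CD24+CD73- replicate 1 gave 15 genes, and leaving out Vg2+ CD24+CD73+ replicate 2 gave 17. The count also moved with the fit: 4 on arrays numbered 1 to 3, 34 after cyclic loess (8 higher, 26 lower), 41 with the array spread as a covariate (10 higher, 31 lower) and 445 with array weights, which did not converge. It was 1, Tnfsf8, with a minimum fold of 1.5.

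**Figure D2:**
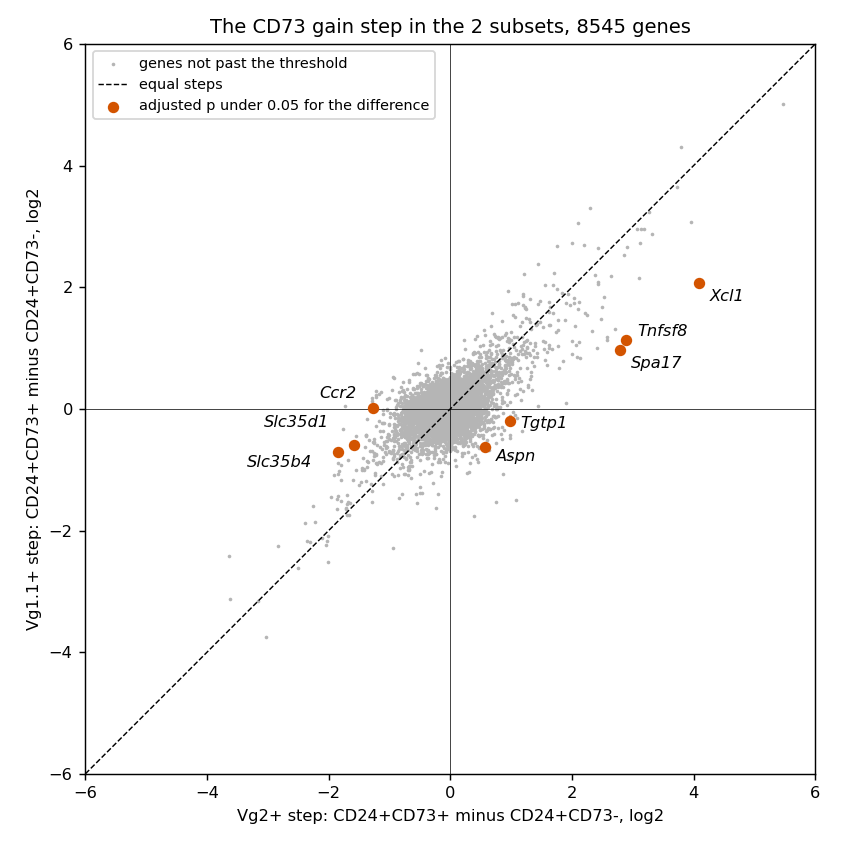
The step of each of 8545 genes (CD24+CD73+ minus CD24+CD73-, log2) in Vg1.1+ cells on the vertical axis and in Vg2+ cells on the horizontal axis, with the dashed line where the steps are equal. Genes with large steps scatter about the line, and the 8 genes past the threshold (orange) lie off it, Xcl1 at 2.07 in Vg1.1+ cells and 4.09 in Vg2+ cells.

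Precision set how small a difference could be seen. The 95% interval of the difference lay wholly within 1 log2 unit of 0 for 6730 genes (78.8%), and did so for 339 of the 450 genes called in both steps (75.3%). Several of the 16 genes followed in any case were among these. The interval of Gzma, a granzyme, was -0.69 to 0.71, that of Sox13, a factor of interleukin 17 producing cells, -0.35 to 0.63, and that of the adhesion receptor Cd44 -0.19 to 0.41. The type 1 regulator Tbx21 had -0.52 to 0.41, and the surface receptors Klrb1a and Crtam had -0.90 to 0.72 and -0.80 to 0.74. For other genes a difference above 1 log2 unit remained within the interval: Nt5e (-0.26 to 1.26), the chemokine Ccl5 (-1.28 to 0.36), the signalling adaptor Fcer1g (-0.09 to 2.12), the terminal transferase Dntt (-2.05 to 0.61), the kinase Blk (-0.45 to 1.42), Id3 (-0.54 to 1.88) and Egr2 (-2.14 to 0.64). Klrd1, a natural killer receptor chain, had -1.52 to -0.24 and did not pass (limma adjusted p = 0.350).

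**Figure D3:**
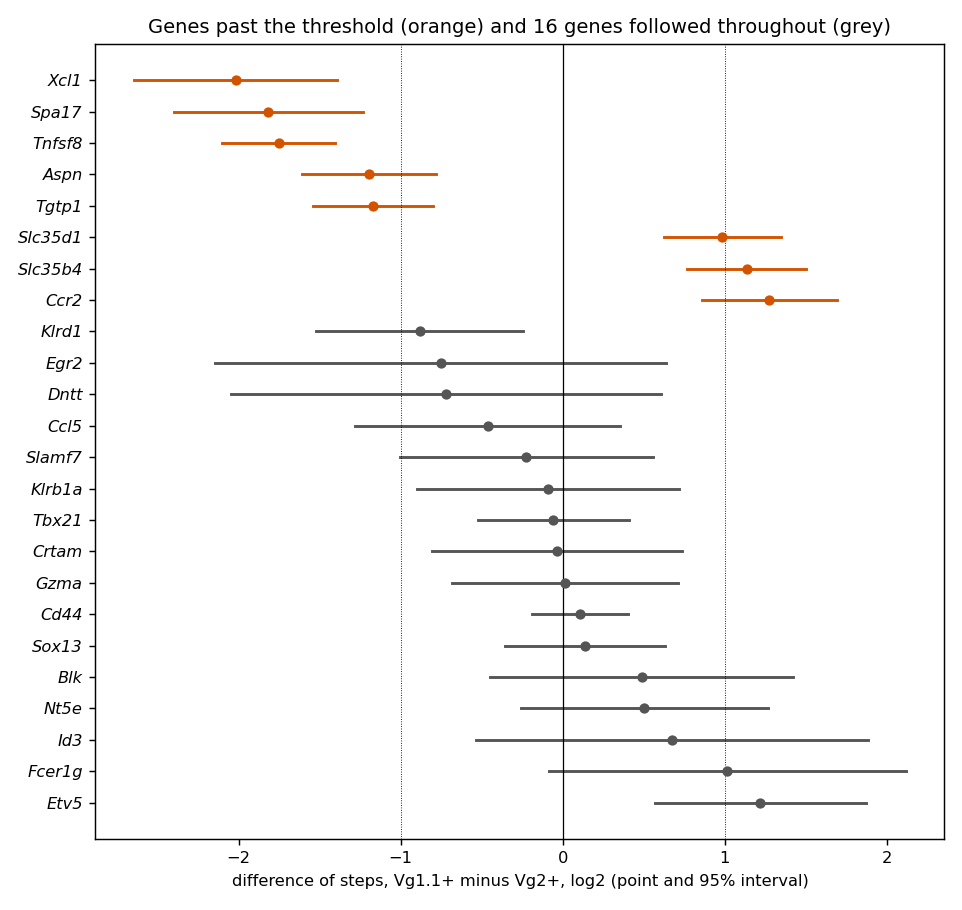
Difference of steps (Vg1.1+ minus Vg2+, log2, horizontal axis) with its 95% interval for the 8 genes past the threshold (orange) and 16 further genes (grey), with dotted lines at 1 log2 unit on either side of 0. Tnfsf8 has a narrow interval, -2.10 to -1.41, and Egr2 a wide one, -2.14 to 0.64.

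The subset differences at the single stages share their arrays with the difference of steps and are given beside it. At CD24+CD73- limma called 175 genes (2.05%), 133 higher (1.56%) and 42 lower (0.492%) in Vg1.1+ cells. At CD24+CD73+ it called 1 gene (0.0117%), Kbtbd4, and 1579 genes had an unadjusted p under 0.05. At CD24-CD73+ it called 984 (11.5%), 495 higher (5.79%) and 489 lower (5.72%). Kbtbd4, an adaptor of ubiquitin ligases, was 0.79 ± 0.13 higher in Vg1.1+ cells at the second stage (adjusted p = 0.0322), and its difference of steps was 0.81 (adjusted p = 0.0978). These counts moved with single arrays. At the first stage 63 to 128 genes were called when 1 of its arrays was left out, with 63 without Vg2+ CD24+CD73- replicate 3, 79 without replicate 2 and 81 without replicate 1 of that group. Without Vg1.1+ CD24+CD73- replicates 2, 3 and 4 in turn they were 95, 81 and 102. At the second stage the count was 97 without Vg2+ CD24+CD73+ replicate 2, 7 without replicate 4 of that group, and 0 without any other of its arrays. Without Vg1.1+ CD24-CD73+ replicate 1, which enters through the shared spread, it was 27. The small count at CD24+CD73+ did not come with small estimates: their median size was 0.197, against 0.138 at CD24+CD73-, and 75 genes exceeded 1 log2 unit, against 30. Such sizes include the spread among arrays. Vg2+ CD24+CD73+ replicate 3 correlated with its own group at r of 0.953 to 0.974, whereas all first-stage arrays did so at 0.988 or more.

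The 175 genes called at CD24+CD73- were followed on the arrays of the later stages. Those arrays gave no value to the first-stage differences but entered the choice through the filter and the shared spread: 294 genes were called without Vg1.1+ CD24-CD73+ replicate 1. The first-stage values are raised by that choice. The 133 genes higher in Vg1.1+ cells had a median difference of 0.70 at the first stage, 0.16 at the second and 0.44 at the last. At the second stage 103 kept their sign, 132 were nearer 0 than at the first, and 0 passed the threshold. At the last stage 112 kept their sign, 96 were nearer 0 and 70 passed in the same direction, against 4 in the opposite one. The 42 genes lower in Vg1.1+ cells had medians of -0.65, -0.13 and -0.12 at the successive stages, with 39 nearer 0 at the second stage and 29 at the last. Of these 42, 32 kept their sign at the second stage and 27 at the last, where 13 passed in the same direction and 5 in the opposite one. Slamf6, a lymphocyte receptor, showed the pattern without passing the test for the difference: it was 1.23 higher in Vg1.1+ cells at the first stage, 0.15 at the second and 1.46 at the last. Leaving out any 1 array or changing the fit, 92.8% to 100% of the genes called at the first stage were nearer 0 at the second. Each of these fits repeats the choice by first-stage size, which by itself draws values at other stages nearer 0. At the last stage 125 of the 175 were nearer 0 than at the first. The share over all tested genes was not counted, so these shares do not measure a convergence of the subsets. All 8 genes with a difference of steps were among the 175, which are 2.05% of the tested genes. The first-stage difference is subtracted in the difference of steps, so this overlap is not separate support.

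**Figure D4:**
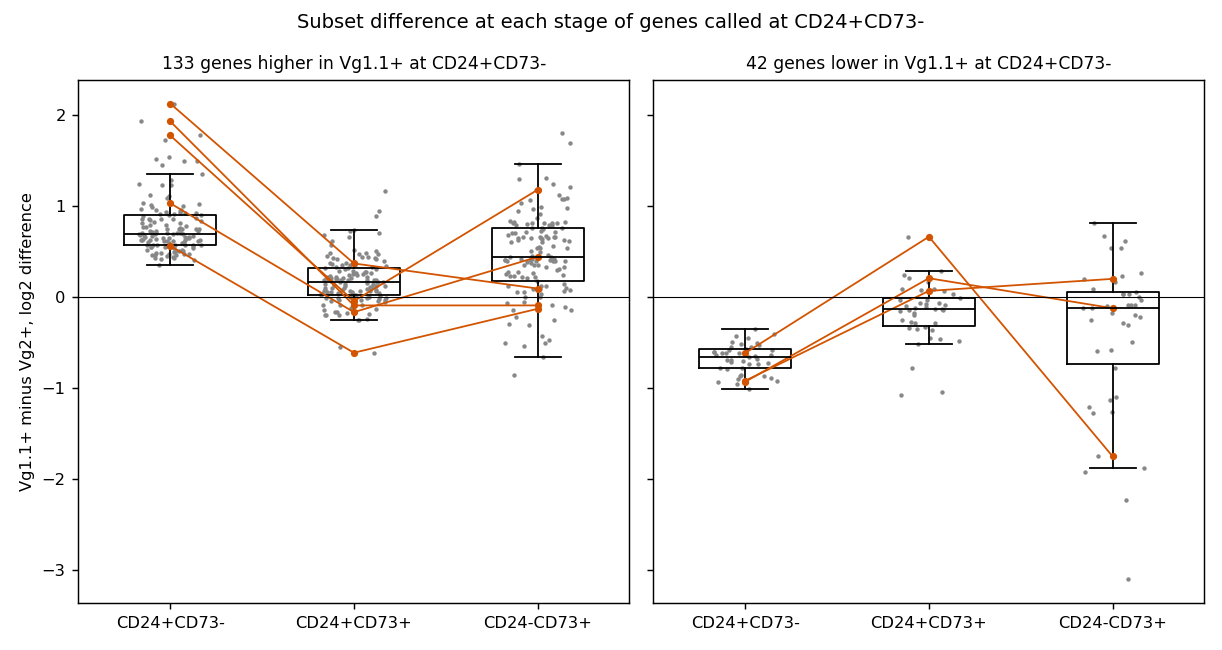
Subset difference (Vg1.1+ minus Vg2+, log2, vertical axis) at each stage (horizontal axis) of the 133 genes higher (left panel) and 42 lower (right panel) in Vg1.1+ cells at CD24+CD73-. Grey points are genes, boxes give the quartiles and median, and orange lines follow the 8 genes whose steps differed; the medians of the left panel are 0.70, 0.16 and 0.44.

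Genes short of the threshold were read as values. On the lower side the lowest p-values after the 5 called genes, predicted genes apart, belonged to the complement chain C1qb (-1.46), the interferon-induced Ifi27l2a (-1.29), the interleukin 10 receptor chain Il10ra (-0.75), the cytokinesis protein Cep55 (-0.71), Slamf6 (-1.08), the inositol transporter Slc5a3 (-1.10), Mpp6 (-0.85), the GTPase Gimap3 (-1.05), the adaptor Tyrobp (-1.44) and Gramd3 (-0.75). On the higher side they belonged to the peroxisomal enzyme Phyh (0.94), the DNA helicase Fbh1 (1.14), Kbtbd4 (0.81), the adhesion molecule Icam1 (0.67), Pnpla7 (0.66), the polarity protein Llgl2 (0.55), Wdr45 (0.92), the kinase Map2k6 (0.69), the ETS factor Etv5 (1.22) and the mannosidase Man1a (0.60). Their adjusted p-values in limma were 0.0600 to 0.163. Slamf6 illustrates the size. It read 8.59, 8.76 and 8.64 in Vg1.1+ CD24+CD73+ cells and 7.79, 8.03, 7.82 and 7.88 in Vg1.1+ CD24+CD73- cells, against 8.64, 8.18, 8.54 and 8.70 in Vg2+ CD24+CD73+ cells and 6.88, 6.53 and 6.56 in Vg2+ CD24+CD73- cells. The step groups were apart in both subsets, and the rise was 0.79 in Vg1.1+ cells and 1.86 in Vg2+ cells.

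Ifi27l2a, Tyrobp and Etv5 were also among the genes short of the threshold. Ifi27l2a read 9.79, 10.04 and 9.65 in Vg1.1+ CD24+CD73+ cells and 8.75, 9.15, 9.05 and 8.99 in Vg1.1+ CD24+CD73- cells, against 10.53, 10.14, 10.56 and 10.28 in Vg2+ CD24+CD73+ cells and 8.79, 8.05 and 7.88 in Vg2+ CD24+CD73- cells. The Vg1.1+ arrays lay below all Vg2+ arrays at CD24+CD73+, while at CD24+CD73- the subsets overlapped. Tyrobp, the adaptor also known as DAP12, read 6.44, 6.79 and 6.19 in Vg1.1+ CD24+CD73+ cells and 5.30, 5.83, 5.31 and 4.90 in Vg1.1+ CD24+CD73- cells, against 7.71, 6.82, 6.81 and 7.47 in Vg2+ CD24+CD73+ cells and 4.36, 4.49 and 5.02 in Vg2+ CD24+CD73- cells. Its step was 1.14 in Vg1.1+ cells and 2.58 in Vg2+ cells. Etv5, a factor of the interleukin 17 programme, read 6.72, 6.16 and 6.78 in Vg1.1+ CD24+CD73+ cells and 9.04, 8.95, 8.73 and 9.19 in Vg1.1+ CD24+CD73- cells, against 6.05, 6.06, 5.42 and 6.01 in Vg2+ CD24+CD73+ cells and 9.17, 9.99 and 9.43 in Vg2+ CD24+CD73- cells. It fell by 2.42 in Vg1.1+ cells and fell by 3.65 in Vg2+ cells, and every Vg1.1+ array was above every Vg2+ array at CD24+CD73+. Some of these genes passed for the difference in alternative fits: Fbh1 and Phyh in 7 each, C1qb, Gimap3 and Slamf6 in 6, Cep55 and Ifi27l2a in 5, and Il10ra in 4.

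Gene lists for the pathways of the called genes held few other members past the test. Where a list holds a called gene, its counts and median include that gene and partly restate its call. Of 4 tested chemokines, Xcl1 passed, and Ccl4 (-0.70), Ccl5 (-0.46) and Cxcl10 (-0.45) also had negative differences, with a list median of -0.58 against 0.06 over all genes. Of 9 TNF-family ligands, Tnfsf8 passed, Cd40lg, the ligand of CD40, had -0.94, Tnf -0.78 and Ltb -0.75, and 6 of 9 lay below 0, against 42.2% of all genes. None of the 12 tested TNF receptors passed, with Fas, a death receptor, at -0.87 (unadjusted p = 0.00247). Of 13 chemokine and egress receptors Ccr2 passed, while Cxcr3, a receptor of type 1 cells, had -1.02 and Cx3cr1 0.76. Of 7 interferon-inducible GTPases Tgtp1 passed and 6 lay below 0 (median -0.13), and of 17 interferon response genes 0 passed and 13 lay below 0 (median -0.18, Ifi27l2a the largest).

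Of 18 nucleotide-sugar transporters 2 passed, Slc35b4 and Slc35d1, a count that restates their calls, against 0.0936% of all tested genes. Slc35b1 had 0.87 and Slc35a3 -0.61, and the list median was 0.10, against 0.06 over all genes. The list for building proteoglycan chains, not all of them glycosyltransferases, had 15 tested genes and 0 past the threshold. Above 0 lay 13, with a median of 0.26, against 4937 of all 8545 tested genes above 0. Ugdh, the enzyme that makes UDP-glucuronic acid, had the largest value (0.76, unadjusted p = 0.00724), followed by B3gat3 (0.73). Asporin's list had 2 tested members, Aspn and Omd (-1.13).

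In the cell cycle list, the longest, 0 of 28 tested genes passed and 23 lay below 0, against 42.2% of all tested genes. The median was -0.38 (-0.50 to -0.31 over the alternative fits), against 0.06 over all genes. An unadjusted limma p under 0.05 was held by 7, all below 0. Over all 8545 tested genes, 371 lay below 0 with such a p. The list mean on each array was 7.04 to 7.13 in Vg1.1+ CD24+CD73+ cells and 7.31 to 7.45 in Vg1.1+ CD24+CD73- cells, against 6.63 to 7.02 in Vg2+ CD24+CD73+ cells and 6.73 to 6.80 in Vg2+ CD24+CD73- cells. The step groups were apart in Vg1.1+ cells and overlapped in Vg2+ cells. The overlap rested on Vg2+ CD24+CD73+ replicate 3 (6.63), the array of narrowest spread in the comparison. It lay below all Vg2+ CD24+CD73- arrays, and replicate 1 (6.80) was level with the highest of them. Mcm7, a subunit of the replicative helicase, had the largest difference (-1.13, adjusted p = 0.249). It read 5.96, 6.00 and 6.08 in Vg1.1+ CD24+CD73+ cells and 6.52, 6.53, 6.60 and 6.63 in Vg1.1+ CD24+CD73- cells, against 6.56, 6.32, 6.19 and 5.94 in Vg2+ CD24+CD73+ cells and 5.75, 5.72 and 5.58 in Vg2+ CD24+CD73- cells. Its order was thus downward in Vg1.1+ cells and upward in Vg2+ cells, with no overlap in either. The cyclin Ccne2 (-0.90), the spindle protein Nusap1 (-0.85) and the anaphase activator Cdc20 (-0.80) followed. The list members share their arrays, so their common sign is not 28 separate observations.

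Lists of T-cell programmes gave 0 genes past the threshold. Response genes of the T-cell receptor (20 tested) had a median of -0.23, with Egr2 at -0.75 and Nr4a3 at -0.52. The Cd28 family list (12) had -0.24, with the inhibitory receptor Btla at -0.90, Cd28 at -0.87 and Icos at 0.81. The interleukin 17 list (13) had 0.17, with Etv5 at 1.22, the scavenger receptor Cd163l1 at 0.63, Il17a at -0.54 and Il17f at -0.52. The type 1 and cytotoxic list (15) had -0.03, and the innate-like effector list (16) 0.16, with the factor Gata3 at 0.97. The early T precursor list (17) had 0.16, the list of killer lectin-like receptors and adaptors (9) -0.11, and that of cytokine receptors (19) 0.12, with the interleukin 2 receptor chain Il2ra at -0.99 (unadjusted p = 0.00168). The medians of the type 1, chemokine receptor and TNF receptor lists changed sign under some alternative fits.

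Some markers of other cells moved with some of these values. Of 12 myeloid and dendritic markers on the array 5 were tested. Below 0 lay 4, each with an unadjusted limma p under 0.05, and 1 lay above 0. Over all 8545 tested genes, 371 lay below 0 with such a p. The 4 were C1qb (-1.46), H2-Ab1 (-1.26), H2-Aa (-1.25) and Cd68 (-0.48). C1qb averaged 3.76 in Vg1.1+ CD24+CD73+ cells and 4.25 in Vg1.1+ CD24+CD73- cells, against 4.59 in Vg2+ CD24+CD73+ cells and 3.61 in Vg2+ CD24+CD73- cells. Its highest value, 5.25, was on Vg2+ CD24+CD73+ replicate 3. The sum over the 12 markers on the linear scale was 442 to 496 and 460 to 540 in the Vg1.1+ groups in that order, against 454 to 575 and 424 to 532 in the Vg2+ groups. Group means above the table's median were held by 2 and 3 of the 12 in the Vg1.1+ groups, against 5 and 2 in the Vg2+ groups. Among those below it, Csf1r and Itgam had group means of 2.74 to 3.16. The other C1q chains were below it too. C1qa averaged 2.43 and 2.55 in the Vg1.1+ groups in the same order, against 2.80 and 2.86 in the Vg2+ groups. C1qc averaged 3.42 and 3.56, against 3.77 and 3.41. Of 5 alpha-beta lineage markers 4 were tested, with Cd8a at -1.40 and Cd8b1 at -1.36, and their sum was 117 to 136 and 267 to 572 in the Vg1.1+ groups, against 120 to 166 and 227 to 302 in the Vg2+ groups. The highest Cd8b1 value, 7.74, was that of Vg1.1+ CD24+CD73- replicate 1. Without that array the same number of genes, 8, passed for the difference of steps. The part of these cells in the differences of Tyrobp, Ifi27l2a or the cell cycle list was not tested. Of the tested markers of B cells (2), thymic epithelium (4), erythroid cells (1), mast cells (1) and natural killer cells (1), 0 passed.

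**Figure D5:**
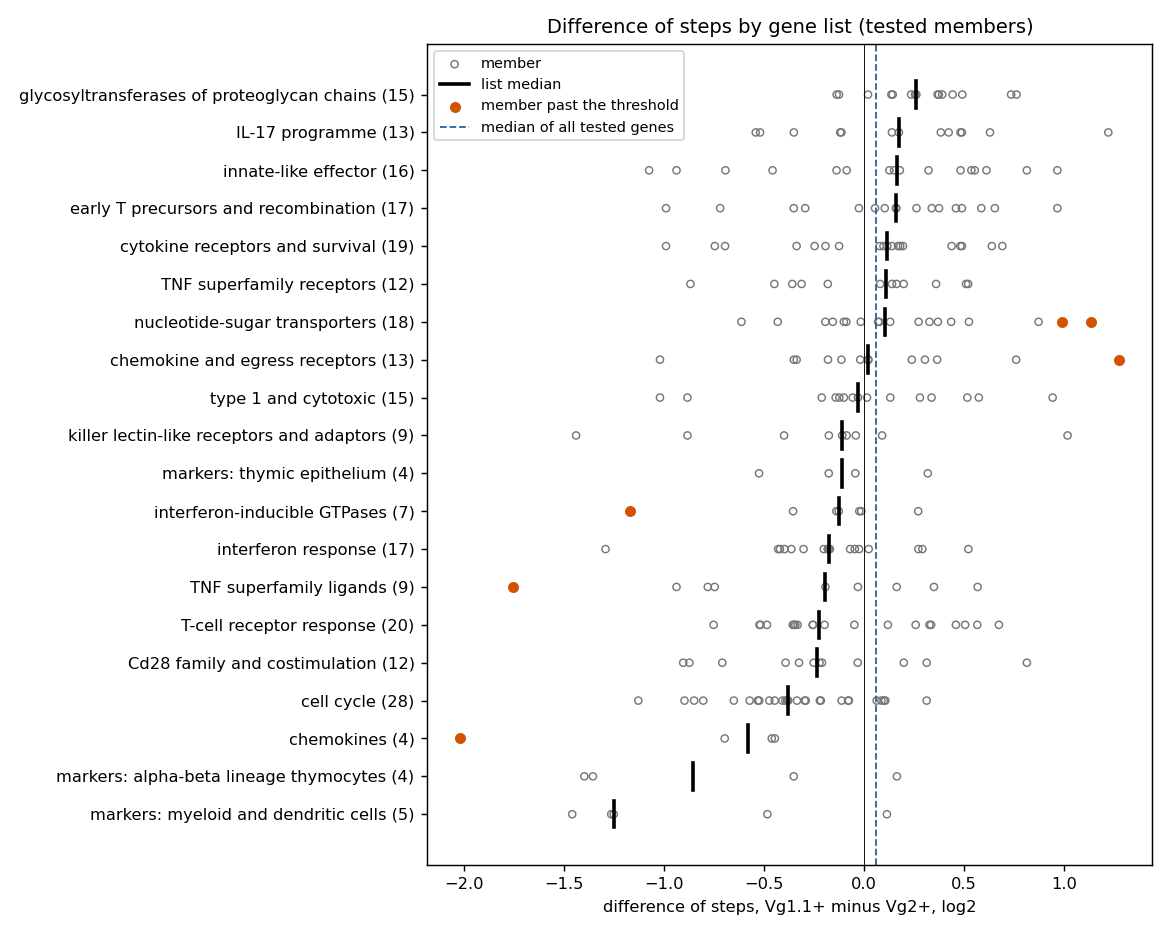
Difference of steps (Vg1.1+ minus Vg2+, log2, horizontal axis) of the tested members of each gene list with at least 4, with the number tested in brackets, the list median as a black bar and the median of all tested genes, 0.06, as a dashed line. Orange members passed the threshold; the cell cycle members lie mostly left of 0, with a median of -0.38.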

How the data were processed

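RNA of sorted thymocytes was measured on 22 arrays, 1 per sample. The extraction used Trizol and the label was biotin in 1 colour, per the labels. The values deposited by the authors are log2 expression per transcript cluster of an Affymetrix mouse exon array, credited to RMA in oligo per the submitters' processing notes, without versions. RMA is a method that removes background, brings arrays to a common distribution and combines the probes of a set, yet the spreads of the deposited values still differed. The sources used here give neither the genome build of the probe annotation nor whether all arrays were normalised together, and no gene positions from the array are reported.

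Of 16755 probe sets, 14996 had 1 gene symbol, 1019 several and 740 none. Probe sets with 1 symbol were used, and for the 135 of 14860 genes with more than 1 probe set the one of highest mean. Tested genes were the 8545 above the table's median log2 value (4.55) on at least 3 arrays of any group. A linear model with a mean for each group was fitted to all 22 arrays with limma 3.58.1 (R 4.3.3) and moderated by empirical Bayes (prior degrees of freedom 4.47, residual 16). P-values were two-sided, adjusted by Benjamini-Hochberg over all tested genes, with a threshold of 0.05. Intervals are 95% intervals of the same fit. The number of arrays limits the precision. No array was dropped or imputed, and 0 pairs of arrays held identical values.

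Named genes were those past the threshold, the 10 of lowest p in each direction short of it without predicted genes, up to 4 members per list and 16 genes followed in any case. The members, the 27 gene lists and these rules were chosen with earlier results of these data known. Alternatives were the replicate block, other filters, empirical Bayes options, fits to fewer arrays, array weights, rescalings, the array spread as a covariate, a minimum fold, all probe sets, and each array left out. The fit was tested on simulated data.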

Additional observations from a re-analysis of the deposited data

Results flagged for a closer look

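The 8 genes whose steps differed between the subsets by the test of the difference itself were Xcl1 (-2.02), Spa17 (-1.82), Tnfsf8 (-1.75), Aspn (-1.19), Tgtp1 (-1.17), Slc35d1 (0.99), Slc35b4 (1.14) and Ccr2 (1.28), each as the Vg1.1+ step minus the Vg2+ step in log2 units.

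Single arrays stood apart from the other 3 of their group in 6 of 102 groups examined, where chance gives about 1 in 20, or 5.1. In Vg1.1+ CD24+CD73- cells, Cep55 was lowest on replicate 1 (5.96, others 6.14 to 6.17), Gramd3 lowest on replicate 3 (4.89, others 5.13 to 5.16), Gzma highest on replicate 3 (9.85, others 9.62 to 9.64) and Kbtbd4 lowest on replicate 4 (5.54, others 5.66 to 5.67). In Vg2+ CD24+CD73+ cells, Etv5 was lowest on replicate 3 (5.42, others 6.01 to 6.06) and Sox13 lowest on replicate 4 (5.30, others 5.58 to 5.61). None of these 6 genes passed the threshold for the difference of steps.

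Outside the genes tested, 1 probe set that lists 2 symbols, 6969997, had a difference of steps of -6.73 ± 0.996 (limma adjusted p = 0.00417 over 9450 probe sets). It read 2.97, 3.46 and 2.02 in Vg1.1+ CD24+CD73+ cells and 5.38, 7.43, 6.59 and 7.62 in Vg1.1+ CD24+CD73- cells, against 6.83, 6.54, 5.41 and 6.11 in Vg2+ CD24+CD73+ cells and 3.91, 4.00 and 2.39 in Vg2+ CD24+CD73- cells. The groups did not overlap in either subset. At CD24-CD73+ it read 7.35, 6.32, 5.59 and 4.48 in Vg1.1+ cells and 7.98, 5.99, 7.15 and 4.83 in Vg2+ cells, where the subsets overlapped.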

How the results depend on the processing

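The 8 differences kept their direction in every alternative in which the gene was tested. Tgtp1 and Aspn were not tested under the stricter filter (5.46), which leaves them 25 alternatives. Tnfsf8 passed in 26 of 26, Xcl1 and Ccr2 in 25 of 26, Tgtp1 in 24 of 25, Spa17 and Slc35b4 in 24 of 26, Aspn in 20 of 25 and Slc35d1 in 20 of 26. The count of 8 genes (3 higher, 5 lower) became 14 with only the groups of the contrast in the fit, 445 with array weights (which did not converge), 4 on arrays numbered 1 to 3, 16 after quantile normalization, 34 after cyclic loess (8 higher, 26 lower), 41 with the array spread as a covariate (10 higher, 31 lower), 15 without the 2 arrays of narrowest spread and 1, Tnfsf8, with a minimum fold of 1.5. Leaving out 1 array gave 7 to 17.

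In the same order of settings, the Vg1.1+ step passed in 1328, 2572, 1131 (spread covariate) and 124 genes (minimum fold) and in 437 to 625 with 1 array left out. The lowest was without Vg1.1+ CD24+CD73+ replicate 1. The Vg2+ step gave 673 with its own groups alone, 165 with the minimum fold and 701 to 1140 with 1 array left out. The subset difference at CD24+CD73- gave 115 without a filter, 459, 1203, 53, 354, 367 and 3 under contrast groups, weights, arrays 1 to 3, covariate, narrowest arrays out and minimum fold, and 63 to 128 with 1 array out. At CD24+CD73+ it gave 0 without a filter, with its own groups, with the covariate and with the minimum fold, 436 with weights, 2 on arrays 1 to 3, 4 after quantile, 5 after loess, 7 without the narrowest arrays, and 0 to 97 with 1 array out. At CD24-CD73+ it gave 466, 1791, 567, 1564 and 140 under contrast groups, weights, arrays 1 to 3, covariate and minimum fold, and 765 to 1186 with 1 array out. The causes of these moves were not tested.

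The replicate numbers were not taken as pairs: 6 of 51 same-numbered pairs of arrays had deviations correlated above 0.1 (median r -0.16), and 2 of 22 arrays correlated best with their own number. With a replicate block the difference of steps passed in 6 genes, without Aspn (adjusted p = 0.0666) and Slc35d1 (0.112), the Vg1.1+ step in 482, the Vg2+ step in 759, and the subset differences in 65, 0 and 738 at the successive stages.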
